A study of Mus musculus with 4 samples.

Results

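Integrins are the cell surface receptors for basement membrane and interstitial matrix, and the 10 integrin genes of the developing nephron described here are Itga1, Itga3, Itga4, Itga5, Itga6, Itga8, Itgav, Itgb1, Itgb5 and Itgb8. They were taken by symbol from the 52636 gene identifiers in the files, and all 10 were found and passed the filter on low counts, as did 18172 genes in all. RNA was sequenced from cells of mouse kidney purified by fluorescence-activated sorting, in 2 Brg1-cKO libraries and 2 control libraries of 3000 cells each. By usual usage Brg1-cKO stands for a conditional knockout of Brg1, the SWI/SNF chromatin remodelling ATPase encoded by Smarca4. Kidney age, sort marker, Cre driver, strain and control genotype are not stated in the sources used here. Whether replicate libraries stem from different mice is not stated either, so every p-value reflects only how far these particular libraries varied, possibly for technical reasons.

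Each integrin is a pair of an alpha and a beta chain, and the alpha chain largely sets the ligand. In mouse metanephric mesenchyme the pair of Itga8 and Itgb1 receives nephronectin from the ureteric bud and is needed for the bud to invade. In podocytes the pair of Itga3 and Itgb1 anchors the foot processes to the laminin of the glomerular basement membrane. The fibronectin and vitronectin receptors, built on Itga5 and Itgav, recognise an arginine-glycine-aspartate motif, and Itgav with Itgb8 releases active TGF-beta from its latent complex.

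Depth and quality differed between the groups. Counts on genes were 14645665 and 10922272 in Brg1-cKO and 35411905 and 37999342 in control. Reads that aligned uniquely outside the counted features made up 53.4% ± 5.47 of uniquely aligned reads in Brg1-cKO and 15.9% ± 0.775 in control (SD, n = 2 each). Pearson correlation of log2 CPM over genes was 0.758 for the Brg1-cKO pair and 0.977 for the control pair, beside 0.801 to 0.807 for pairs across the groups, so the Brg1-cKO libraries stood apart from each other as well as from control. Smarca4 was at 760.1 and 691 CPM in Brg1-cKO cells, compared with 898 and 937 CPM in the controls. Xist was at 836 and 1205 CPM in Brg1-cKO cells, compared with 244 and 217 CPM in the controls, and the Y-linked Ddx3y was at 1.05 and 3.27 CPM in Brg1-cKO and 76.0 and 78.8 CPM in control, so a difference in sex between the groups and an effect of genotype cannot be told apart. CPM here means counts relative to library size, with sizes scaled by TMM, a trimmed-mean normalization.

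Among the 10 integrin genes, Itga3 and Itgb5 stood highest above control, at 2.76-fold and 1.78-fold, and Itga4 stood lowest, at 0.153-fold. Itga8 and Itga5 lay close to control, Itgb1 was slightly lower, and Itga1 and Itga6 lay above both controls in 1 Brg1-cKO library and below both in the other. Itgav lay between the controls in 1 Brg1-cKO library and below both in the other. In edgeR's quasi-likelihood test with Benjamini-Hochberg adjustment over all tested genes, 0 of the 10 passed an adjusted p of 0.05, and 0% of all genes did. At an unadjusted p under 0.05 there were 2 higher members, Itga3 and Itgb5, and 1 lower, Itga4. Over all genes tested 5.44% were higher and 12.9% lower by the same rule. The libraries of the groups did not overlap for 7 members, with Brg1-cKO above control in 5 and below it in 2. Over all genes 17.5% were higher and 34.5% lower without overlap, and among the 11233 genes at 10 CPM or more in either group the shares were 23.7% and 26.2%. The median log2 fold change of the 10 was 0.16, beside -0.06 over all tested genes. An exact two-sided permutation test of 2 against 2 libraries cannot go below p = 0.333. These are bulk samples, in which fewer cells of a type and less RNA per cell cannot be told apart.

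**Figure D1:**
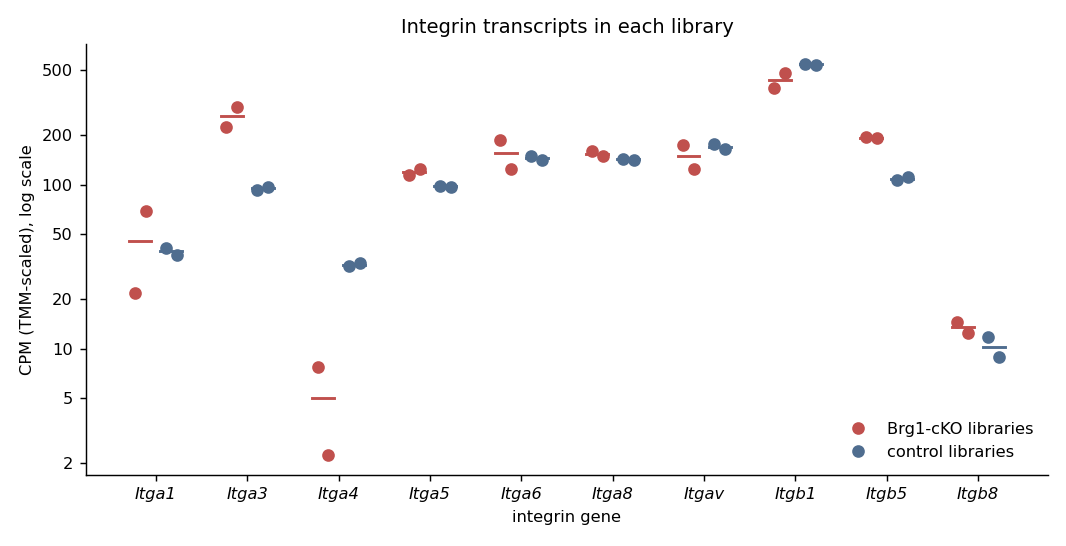
CPM (log axis) of the 10 integrin genes in each library, with Brg1-cKO points left of control points and a bar at each group's mean of 2 libraries. Itga3 and Itgb5 lie above control in both Brg1-cKO libraries and Itga4 lies below, while the Brg1-cKO points of Itga1 fall on both sides of control at 21.8 and 69.2 CPM.

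The laminin receptors were described first. Itga3 (ENSMUSG00000001507), on chromosome 11 between 95044474 and 95076801, minus strand (mm10), was at 225 and 297 CPM in Brg1-cKO cells, compared with 92.9 and 96.6 CPM in the controls. Both Brg1-cKO libraries lay well above both controls, and they differed from each other by 1.32-fold. The log2 fold change was 1.46 (SE 0.19, 95% interval 0.92 to 2.01, edgeR adjusted p = 0.166). Without Brg1-cKO replicate 1 it was 1.62, and without Brg1-cKO replicate 2 it was 1.23. Itga6 (ENSMUSG00000027111), on chromosome 2 between 71745616 and 71858416, plus strand, encodes the other main laminin-binding chain of nephron epithelium. It was at 188 and 124 CPM in Brg1-cKO cells, compared with 150.2 and 141 CPM in the controls. Replicate 1 of Brg1-cKO lay above both controls and replicate 2 below both, and the log2 fold change of 0.10 had a 95% interval from -0.61 to 0.81 (edgeR adjusted p = 0.898). Its sign turned to -0.26 without Brg1-cKO replicate 1.

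The start region of Itga3 is shown with those of Itgb5 and Itga4, because these 3 genes carry the differences among the members. Each run covers 250 bases before to 50 after a gene start, 5′ to 3′ on the gene's own strand, from RefSeq on GRCm38.p6, the assembly behind mm10. The windows are chr11:95076665-95076964 on the minus strand for Itga3, chr16:33829415-33829714 on the plus strand for Itgb5 and chr2:79255176-79255475 on the plus strand for Itga4. Itga3 has a second window in the table, at an inner start (chr11:95069149-95069448), with 1 GC box and 5 CpG dinucleotides, and the one shown is that at the outer end of the gene. Capitals mark the GC box GGGCGG, the site of Sp1-type factors, on either strand.
Itga3: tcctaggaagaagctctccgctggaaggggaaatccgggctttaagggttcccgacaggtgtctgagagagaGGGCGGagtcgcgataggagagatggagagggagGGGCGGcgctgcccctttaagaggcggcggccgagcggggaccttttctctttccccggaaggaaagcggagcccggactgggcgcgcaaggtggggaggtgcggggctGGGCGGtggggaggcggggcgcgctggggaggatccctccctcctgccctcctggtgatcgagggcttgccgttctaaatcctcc
Itgb5: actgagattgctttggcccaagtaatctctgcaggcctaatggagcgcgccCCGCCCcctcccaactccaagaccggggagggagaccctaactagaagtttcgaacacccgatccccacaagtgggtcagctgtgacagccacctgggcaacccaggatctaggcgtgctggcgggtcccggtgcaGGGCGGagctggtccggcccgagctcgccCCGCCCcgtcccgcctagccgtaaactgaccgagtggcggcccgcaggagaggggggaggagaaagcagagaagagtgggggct
Itga4: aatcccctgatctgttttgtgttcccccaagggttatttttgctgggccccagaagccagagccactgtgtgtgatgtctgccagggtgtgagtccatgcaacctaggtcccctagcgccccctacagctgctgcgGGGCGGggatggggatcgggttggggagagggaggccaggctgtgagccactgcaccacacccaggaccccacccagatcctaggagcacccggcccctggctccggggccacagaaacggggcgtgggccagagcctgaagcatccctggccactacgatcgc
The windows shown for Itga3 and Itgb5 held 3 GC boxes each and 24 and 20 CpG dinucleotides, and the window of Itga4 held 1 GC box and 10 CpG. Of 32851 such windows in the table, 35.7% held at least 1 GC box, and the median CpG count was 7. Entries were found for 9 of the 10 members. The windows at the gene starts of Itga5, Itgav and Itgb1 held 2, 1 and 1 GC boxes, and those of Itga8, Itga1 and Itgb8 held none. The share of all windows with 3 or more GC boxes was not computed. The windows of Itgb1, Itgav and Itga8 held 27, 24 and 23 CpG, and those of Itga5, Itgb8 and Itga1 held 13, 13 and 12. CpG-rich windows were thus not limited to the higher members. The other searches, also on both strands, were for TATAAA, the core GCGTGGG bound by Egr1 and Wt1, and TCANGTTTC, a motif bound by Six2. Among the members' windows TATAAA and TCANGTTTC were not found, and GCGTGGG was found once, in that of Itga4. These motifs occurred in 13.6%, 1.08% and 5.04% of all windows. A match describes letters in this window and not a bound site.

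The alpha chains of the receptors for arginine-glycine-aspartate ligands lay near their control levels. Itga8 (ENSMUSG00000026768), the nephronectin receptor chain of the metanephric mesenchyme, is encoded on chromosome 2 between 12106632 and 12301922, minus strand. It was at 159 and 149.8 CPM in Brg1-cKO cells, compared with 144 and 142 CPM in the controls. The 4 values lay close together, with both Brg1-cKO libraries just above both controls. The log2 fold change was 0.11 (SE 0.14, edgeR adjusted p = 0.777), and its 95% interval ran from -0.28 to 0.50, so changes in either direction of the size fitted for Itgb5 lie outside it. Itga5 (ENSMUSG00000000555), the fibronectin receptor chain, is encoded on chromosome 15 between 103344286 and 103366763, minus strand. It was at 114 and 124 CPM in Brg1-cKO cells, compared with 98.0 and 96.8 CPM in the controls. Both Brg1-cKO libraries were higher, with a log2 fold change of 0.29 and a 95% interval from -0.18 to 0.75 (edgeR adjusted p = 0.502).

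Itgav (ENSMUSG00000027087), the alpha chain shared by the vitronectin and TGF-beta-activating receptors, is encoded on chromosome 2 between 83724397 and 83806916, plus strand. It was at 174 and 125 CPM in Brg1-cKO cells, compared with 177 and 164 CPM in the controls. Brg1-cKO replicate 1 lay between the controls and replicate 2 below both. The log2 fold change was -0.19, with a 95% interval from -0.81 to 0.43 (edgeR adjusted p = 0.753), and it was 0.01 without Brg1-cKO replicate 2.

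The remaining alpha chains were scarcer and varied more. Itga1 (ENSMUSG00000042284), which with Itgb1 forms a collagen receptor known from mesangial and endothelial cells, is encoded on chromosome 13 between 114953096 and 115101964, minus strand. It was at 21.8 and 69.2 CPM in Brg1-cKO cells, compared with 40.9 and 37.3 CPM in the controls. The Brg1-cKO libraries differed from each other by 3.17-fold and lay on opposite sides of control, and the log2 fold change of 0.22 had a 95% interval from -1.56 to 2.0 (edgeR adjusted p = 0.910). Without Brg1-cKO replicate 1 it was 0.80, and without Brg1-cKO replicate 2 it was -0.86. Both of these edgeR fits passed the threshold, in opposite directions, at adjusted p = 9.55e-05 and 2.39e-04.

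Itga4 (ENSMUSG00000027009) encodes the chain of leukocytes and mesenchymal cells that binds Vcam1 and fibronectin. The gene spans chromosome 2 between 79255426 and 79333123, plus strand. It was at 7.69 and 2.24 CPM in Brg1-cKO, on 110 and 24 counts, against 31.9 and 33.2 CPM in control. Both Brg1-cKO libraries were far below both controls, and they differed from each other by 3.43-fold. The log2 fold change was -2.71 (SE 0.80, 95% interval -4.94 to -0.48, edgeR adjusted p = 0.201). It was -3.89 without Brg1-cKO replicate 1 and -2.10 without Brg1-cKO replicate 2. Itga4 shares 1124 exonic bases with its antisense neighbour Cerkl, Itga8 shares 372 with E030013I19Rik and Itgav 634 with Gm13684, and Itga1 shares 685 with Gm49395 on its own strand. The strand used in counting is not stated in the sources used here, so reads of these shared parts are uncertain.

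Of the beta chains, Itgb1 (ENSMUSG00000025809) is the common partner of most alpha chains in kidney and is encoded on chromosome 8 between 128685654 and 128733200, plus strand. It was at 387 and 477 CPM in Brg1-cKO cells, compared with 546 and 532 CPM in the controls. Both Brg1-cKO libraries were below both controls, with log2 fold change -0.32 (SE 0.14, 95% interval -0.70 to 0.06, edgeR adjusted p = 0.354). Itgb5 (ENSMUSG00000022817), which pairs with Itgav as a vitronectin receptor, is encoded on chromosome 16 between 33829665 and 33949338, plus strand. It was at 194 and 191 CPM in Brg1-cKO cells, compared with 106 and 110.4 CPM in the controls. Within each group the libraries were nearly level, and the log2 fold change was 0.83 (SE 0.14, 95% interval 0.44 to 1.22, edgeR adjusted p = 0.166). Without Brg1-cKO replicate 1 it was 0.79, and without replicate 2 it was 0.82.

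Itgb8 (ENSMUSG00000025321), the partner of Itgav in TGF-beta activation, is encoded on chromosome 12 between 119158022 and 119238802, minus strand. It was at 14.5 and 12.4 CPM in Brg1-cKO cells, compared with 11.7 and 8.89 CPM in the controls. On 208 and 133 counts in Brg1-cKO and 419 and 343 in control, the log2 fold change of 0.39 had a 95% interval from -1.37 to 2.15 (edgeR adjusted p = 0.826).

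**Figure D2:**
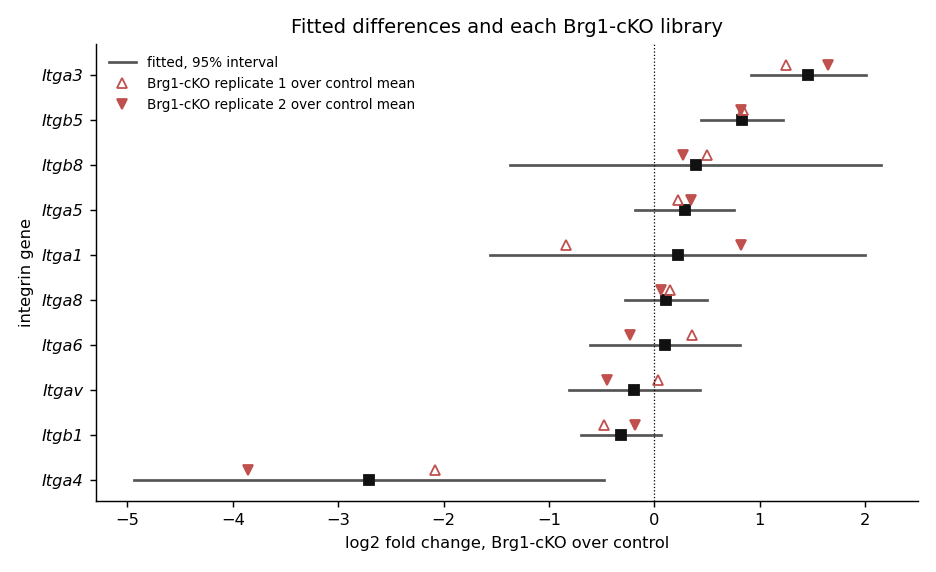
Log2 fold change of Brg1-cKO over control for the 10 integrin genes: squares with bars are the fitted value and its 95% interval, and triangles are each Brg1-cKO library over the mean of the controls. The intervals of Itga3, Itgb5 and Itga4 leave out 0, while the triangles of Itga1 stand at -0.84 and 0.82.

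Other tools called some members on the same counts. DESeq2 called Itga3, Itgb5 and Itga4 (adjusted p = 1.07e-08, 7.27e-08 and 0.0145), where it called 10.8% of the genes to which it gave an adjusted p. The edgeR likelihood ratio test called the same 3 genes (adjusted p = 7.85e-05, 0.0123 and 0.0343) and 13.6% of all genes. Limma-voom with a variance per group called only Itga3 of the 10 (adjusted p = 0.0431), with 0.737% of all genes, and a fit with the replicate number as a term also called only Itga3 (adjusted p = 0.00137), with 0.858% of all genes. Without a Brg1-cKO library the lone library left is assumed to vary like the controls, and 55.5% of all genes passed without replicate 1 and 60.6% without replicate 2. In these fits 8 and 6 of the 10 members passed, among them Itga3, Itgb5 and Itga4 both times. Without control replicate 1 and without control replicate 2, 0 of the 10 passed, where 0.0818% and 0.0817% of all genes did, so these counts say nothing about the members.

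Levels of different genes were compared per length, as RPKM over the union of annotated exons. In Brg1-cKO the order was Itgb1 at 106 ± 15.5 RPKM, Itgb5 at 54.2 ± 0.639, Itga3 at 45.7 ± 8.88, Itga5 at 24.1 ± 1.46, Itga8 at 21 ± 0.897, Itga6 at 17.3 ± 4.98, Itgav at 13.9 ± 3.28, Itga1 at 2.45 ± 1.80, Itgb8 at 1.22 ± 0.135 and Itga4 at 0.355 ± 0.275 RPKM (SD, n = 2). In control it was Itgb1 at 132 ± 2.42, Itgb5 at 30.5 ± 0.832, Itga5 at 19.7 ± 0.170, Itga8 at 19.4 ± 0.232, Itga3 at 16.6 ± 0.450, Itga6 at 16.2 ± 0.699, Itgav at 15.9 ± 0.858, Itga4 at 2.33 ± 0.0631, Itga1 at 2.10 ± 0.135 and Itgb8 at 0.931 ± 0.180 RPKM (SD, n = 2). Itga3 thus stood first among the 7 alpha chains in Brg1-cKO and below Itga5 and Itga8 in control. Neighbours whose libraries overlapped were Itga8 and Itga6, Itga6 and Itgav, and Itga1 and Itgb8 in Brg1-cKO, and Itga3 and Itga6 and then Itga6 and Itgav in control. The place of Itga6 depends on its length, since by the longest transcript it was at 43.6 and 28.8 RPKM in Brg1-cKO and at 34.9 and 32.8 RPKM in control. By the same measure Itga3 was at 46.3 and 61.1 RPKM in Brg1-cKO, against 19.1 and 19.9 RPKM in control, so that Itga6 stood first among the 7 in control and Itga3 remained first in Brg1-cKO.

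As a share of the summed RPKM of 18 alpha chain genes, Itga3 held 25.7% and 36.8% in the Brg1-cKO libraries, against 12.5% and 13.5% in control. Itga8 held 14.2% ± 0.229 in Brg1-cKO and 15.3% ± 0.228 in control, and Itga5 held 16.4% ± 1.96 in Brg1-cKO and 15.5% ± 0.282 in control (SD, n = 2 each). Itga9, an alpha chain outside the 10 that binds tenascin and fibronectin, held 17.2% and 6.86% in Brg1-cKO and 23.7% and 22.6% in control. The alpha pool thus held more Itga3 and less Itga9 in both Brg1-cKO libraries, while the share of Itga8 was lower by about 1 percentage point. Among 8 beta chain genes, Itgb5 held 36.0% and 30.6% in Brg1-cKO, against 17.7% and 18.7% in control, and Itgb1 held 62.5% and 66.6% in Brg1-cKO, against 79.4% and 78.6% in control. The ratio of Itga3 to Itgb1 was 0.416 and 0.445 in Brg1-cKO, against 0.122 and 0.130 in control. The ratio of Itgb5 to its partner Itgav was 3.36 and 4.63 in Brg1-cKO, against 1.82 and 2.04 in control. Neither ratio overlapped between the groups, nor did any other ratio computed, most of which contain Itga3 or Itgb5, already seen to differ. How often ratios of other gene pairs fail to overlap was not computed. Of single genes tested, 17.5% were higher and 34.5% lower without overlap, so separation alone does not mark out these ratios. The ratio of Itga8 to Itga5, genes close to control, was 0.937 and 0.810 in Brg1-cKO, against 0.987 and 0.982 in control. With 2 libraries each, no exact test of these ratios can reach the threshold.

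**Figure D3:**
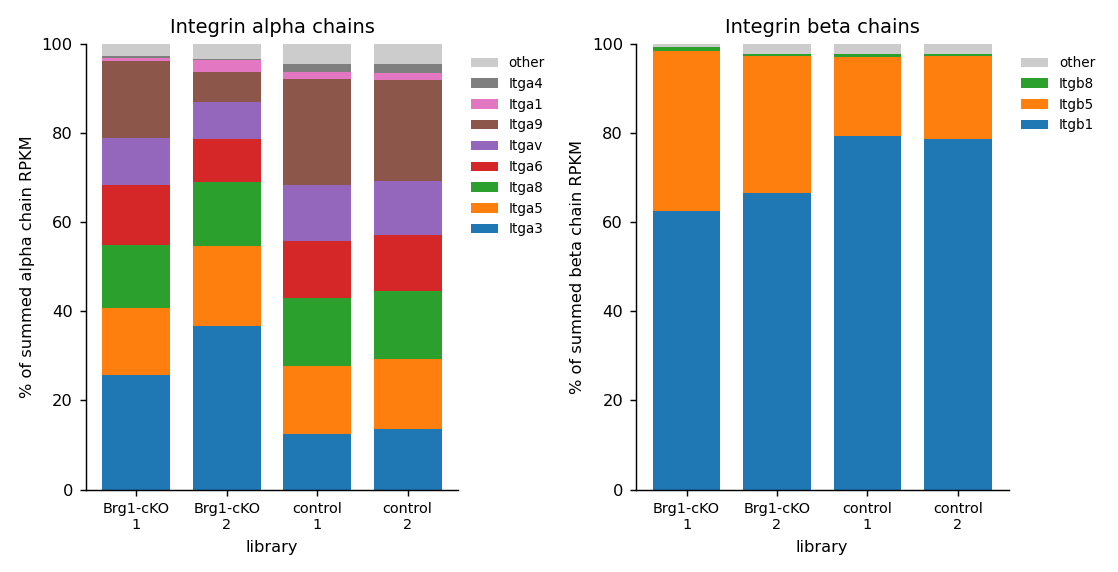
Share in percent of the summed RPKM of integrin alpha chain genes (left) and beta chain genes (right) in each library, with chains outside the named ones pooled as other. The Itga3 segment is 25.7% and 36.8% in Brg1-cKO and 12.5% and 13.5% in control, and the Itgb5 segment is 36.0% and 30.6% in Brg1-cKO and 17.7% and 18.7% in control.

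Markers of cell types also differed between these libraries. Over all tested genes 17.5% were higher and 34.5% lower without overlap, and at 10 CPM or more in either group 23.7% and 26.2%. The summed level of 12 podocyte markers was 4179 and 3953 CPM in Brg1-cKO cells, compared with 1544 and 1602 CPM in the controls, with 10 of the 12 higher without overlap and none at 0. The podocyte junction gene Nphs1 was at 152 and 198 CPM in Brg1-cKO and 21.8 and 22.1 CPM in control. The early nephron list was at 2527 and 2415 CPM in Brg1-cKO cells, compared with 1447 and 1446 CPM in the controls, with 8 of 10 markers higher. Both lists were higher in Brg1-cKO, as were Itga3 and Itgb5, and their part in those differences was not tested. The nephron progenitor list was at 1235 and 1226 CPM in Brg1-cKO and 1159 and 1140.1 CPM in control. Its 10 markers went both ways, with 2 higher, 3 lower and 5 overlapping. The self-renewal factor Six2 was at 234 and 126 CPM in Brg1-cKO and 242 and 237 CPM in control, and Sall1 was at 548 and 535 CPM in Brg1-cKO and 439 and 441 CPM in control.

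The lists lower in Brg1-cKO went with Itga4. Of all tested genes 34.5% were lower without overlap, and 26.2% of those at 10 CPM or more in either group. The immune list was at 57.2 and 65.8 CPM in Brg1-cKO cells, compared with 149 and 144 CPM in the controls, with 8 of 10 markers lower and C1qa at 0. The endothelial list was at 507 and 383 CPM in Brg1-cKO cells, compared with 763 and 778 CPM in the controls, with 8 of 10 lower and 0 at 0 counts. The stromal list was at 1421 and 1253 CPM in Brg1-cKO cells, compared with 2818 and 2777 CPM in the controls, with 10 of 11 lower and Ren1 at 0. The ureteric bud list was at 149 and 76.8 CPM in Brg1-cKO cells, compared with 222 and 230.3 CPM in the controls, with 7 of 10 lower and Calb1, Wnt7b and Wnt9b at 0. The tubule list was at 237 and 326 CPM in Brg1-cKO and 173 and 171 CPM in control, and the neural list at 93.6 and 53.8 CPM in Brg1-cKO and 29.8 and 30.8 CPM in control. Slc3a1, Umod and Th were at 0 in Brg1-cKO, but in control Slc3a1 was only at 0.727 and 1.04 CPM. Umod, at 0.140 and 0 CPM in control, and Th, at 0.252 and 0.363 CPM, were too low to be tested. Of 18172 tested genes, 1527 had 0 counts in both Brg1-cKO libraries and 52 in both controls. The erythroid list summed to 0.841 CPM or less in every library. The part of these cell types in the integrin values was not tested.

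**Figure D4:**
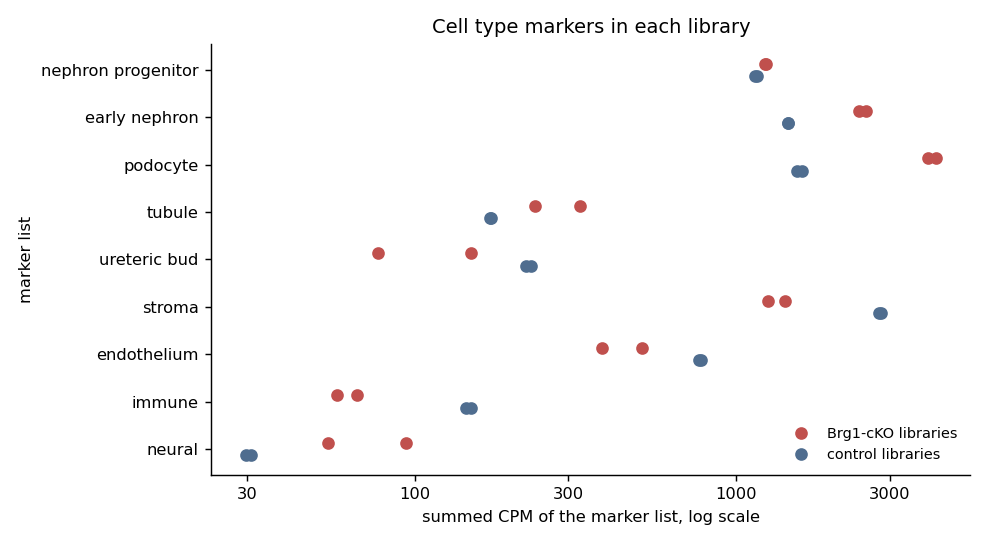
Summed CPM (log axis) of each cell type marker list in each library, with Brg1-cKO points above control points in each row. The podocyte list stands at 4179 and 3953 CPM in Brg1-cKO and 1544 and 1602 CPM in control, and the stromal list at 1421 and 1253 CPM in Brg1-cKO and 2818 and 2777 CPM in control.

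The laminin and collagen ligands were described as a list of 17 genes, of which 0 passed the adjusted threshold in edgeR's quasi-likelihood test, 6 were higher at an unadjusted p under 0.05 and 1 was lower. Over all tested genes 5.44% were higher and 12.9% lower by that rule. The list's median log2 fold change was 0.22, beside -0.06 over all genes. Lama5, the laminin chain that the Itga3 receptor binds in the mature glomerular basement membrane, was at 602 and 521 CPM in Brg1-cKO cells, compared with 238 and 230.2 CPM in the controls. Both Brg1-cKO libraries lay far above both controls, with log2 fold change 1.26 (SE 0.12, edgeR adjusted p = 0.166). Lamb1 was at 975 and 959 CPM in Brg1-cKO cells, compared with 629 and 655 CPM in the controls, and Lamc1 at 1127 and 1258 CPM in Brg1-cKO and 900.3 and 919 CPM in control. Lama1, the early laminin alpha chain of nephron epithelium, was at 217 and 307 CPM in Brg1-cKO cells, compared with 272 and 271 CPM in the controls, and so overlapped.

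Among the collagens, Col4a4, a type IV chain of the mature glomerular basement membrane, was at 66.0 and 32.6 CPM in Brg1-cKO cells, compared with 6.06 and 5.47 CPM in the controls (log2 fold change 3.09, SE 0.53, edgeR adjusted p = 0.166). Col4a2, a type IV chain of nearly all basement membranes, was at 853 and 833 CPM in Brg1-cKO cells, compared with 878 and 875 CPM in the controls. Col1a1, the fibrillar collagen of stroma, which the stromal list also holds, was at 485 and 466 CPM in Brg1-cKO cells, compared with 1047 and 1031 CPM in the controls.

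Of the 23 arginine-glycine-aspartate and other ligands, 21 were tested, 0 passed the adjusted threshold in edgeR's quasi-likelihood test, and 2 were higher and 8 lower at an unadjusted p under 0.05. The shares over all tested genes were 5.44% higher and 12.9% lower by that rule. The median log2 fold change of the list was -0.28. Npnt, which encodes nephronectin, the ligand of Itga8, was at 122 and 243 CPM in Brg1-cKO cells, compared with 92.6 and 93.5 CPM in the controls. Both Brg1-cKO libraries were higher but differed from each other, and the 95% interval of the log2 fold change of 0.97 ran from -0.11 to 2.04 (edgeR adjusted p = 0.318). Fn1, fibronectin, the ligand of Itga5, was at 853 and 664 CPM in Brg1-cKO cells, compared with 1298 and 1325 CPM in the controls (log2 fold change -0.79, SE 0.15, edgeR adjusted p = 0.166). Tgfb1, a cytokine whose latent form Itgav with Itgb8 activates, was at 5.87 and 9.06 CPM in Brg1-cKO cells, compared with 48.0 and 46.6 CPM in the controls (log2 fold change -2.66, SE 0.42, edgeR adjusted p = 0.166). The other TGF-beta genes of the list lay nearer control. Tgfb3 was at 34.2 and 28.6 CPM in Brg1-cKO and 36.5 and 35.4 CPM in control. Tgfb2 was at 32.8 and 29.2 CPM in Brg1-cKO and 28.7 and 35.2 CPM in control. Fbn2, a fibrillin of microfibrils, was at 568 and 544 CPM in Brg1-cKO cells, compared with 830.1 and 845 CPM in the controls.

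Ltbp1, which holds latent TGF-beta in the matrix, stood the other way, at 426 and 456 CPM in Brg1-cKO cells, compared with 321 and 331 CPM in the controls. Frem2, of the Fraser complex at basement membranes, was at 485 and 582 CPM in Brg1-cKO cells, compared with 336 and 345 CPM in the controls. Vcam1, the ligand of Itga4, was at 24.5 and 19.8 CPM in Brg1-cKO and 23.6 and 25.9 CPM in control, and the groups overlapped. Vtn, vitronectin, was too low to be tested, with 0 counts in both Brg1-cKO libraries and 4 and 20 in control.

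**Figure D5:**
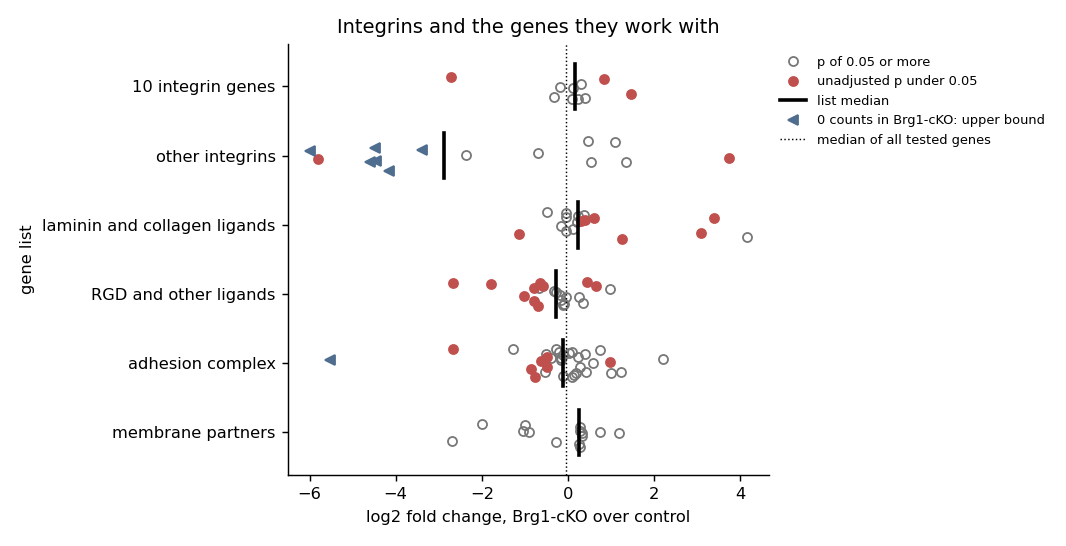
Log2 fold change of Brg1-cKO over control for the tested genes of the integrin set and of 5 lists of related genes, with filled red points at an unadjusted p under 0.05, thick bars at list medians and the dotted line at the median of all tested genes. Triangles are upper bounds, covering counting error only, for genes with 0 counts in both Brg1-cKO libraries, 6 of them in the list of other integrins. The medians run from -2.88 for the other integrins to 0.26 for the membrane partners.

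The proteins that link integrins to actin were described as a list of 32 genes, with 0 past the adjusted threshold in edgeR's quasi-likelihood test. At an unadjusted p under 0.05 there were 1 higher and 7 lower, where 5.44% and 12.9% of all tested genes were. The median log2 fold change was -0.13. Tln1, talin, which switches integrins on from inside, was at 433 and 404 CPM in Brg1-cKO cells, compared with 449 and 464 CPM in the controls. Fermt2, the broadly expressed kindlin, was at 242 and 337 CPM in Brg1-cKO cells, compared with 216 and 217 CPM in the controls, and Ptk2, focal adhesion kinase, at 201 and 201 CPM in Brg1-cKO and 162 and 172 CPM in control. The intervals of both log2 fold changes, 0.42 and 0.27, included 0. Fermt1, the kindlin of epithelia, was at 0 and 18.3 CPM in Brg1-cKO and 6.26 and 4.80 CPM in control, and the groups overlapped. Sharpin, which holds integrins inactive, was at 66.2 and 69.0 CPM in Brg1-cKO cells, compared with 30.2 and 38.5 CPM in the controls (edgeR adjusted p = 0.172). Flna, filamin, which competes with talin for beta chains, was at 967 and 972 CPM in Brg1-cKO cells, compared with 1337 and 1360.0 CPM in the controls (log2 fold change -0.48, SE 0.07, edgeR adjusted p = 0.166). The adaptors Crkl and Tns1 were at 64.0 and 62.7 and at 59.7 and 74.5 CPM in Brg1-cKO cells, compared with 113 and 102 and 126 and 117 CPM in the controls.

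The 16 integrin genes outside the 10 were mostly scarce, and 14 were tested, of which 0 passed the adjusted threshold in edgeR's quasi-likelihood test. At an unadjusted p under 0.05 there were 1 higher and 7 lower, where 5.44% and 12.9% of all tested genes were. The median log2 fold change was -4.08, or -2.88 with the genes at 0 counts in Brg1-cKO set to their bound. Itga7, a laminin receptor chain known from muscle, was at 16.8 and 20.8 CPM in Brg1-cKO cells, compared with 1.51 and 1.30 CPM in the controls (log2 fold change 3.74, SE 0.79, edgeR adjusted p = 0.166). Itga2, a collagen receptor chain, was at 0 and 0.560 CPM in Brg1-cKO cells, compared with 15.8 and 15.2 CPM in the controls. Itgb4, the partner of Itga6 in hemidesmosomes, was at 5.73 and 15.5 CPM in Brg1-cKO and 7.21 and 8.06 CPM in control, and Itgb6, a partner of Itgav in epithelia, at 0.140 and 11.4 CPM in Brg1-cKO and 2.35 and 2.20 CPM in control. The Brg1-cKO libraries of both genes lay on opposite sides of control. Of the tested genes, Itga10, Itgal, Itgam, Itgb2, Itgb3 and Itgb7 had 0 counts in both Brg1-cKO libraries and were at 7.70 CPM or less in each control. Over the whole table, 1527 of 18172 tested genes had 0 counts in both Brg1-cKO libraries, and 52 had 0 in both controls. The Brg1-cKO libraries were also the shallower ones, so these zeros are not particular to the integrins. For Itgal and Itgb2, the pair that lymphocytes use to bind ICAM, the log2 fold change was at or below -5.99 and -4.59 against a floor of 3 counts over the Brg1-cKO group. That floor covers counting error only. Zeros also stood beside high counts, since Csf1r had 367 and 0 counts in the Brg1-cKO libraries and Fermt1 had 0 and 196. These bounds may thus overstate the differences. The immune list given above summed lower in the same libraries, and its part was not tested.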

How the data were processed

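Reads per gene were deposited by the authors as whole-number counts for 2 Brg1-cKO and 2 control libraries, and each file ends with totals of unassigned reads. Per the labels' protocols, libraries from 3000 cells were strand-specific, randomly primed and sequenced as single-end reads of 75 bp. Per the submitters' processing notes, the tools named are TopHat and DESeq2 and the build is mm10. How reads were counted, on which strand and with which annotation is not given in the sources used here. Reads given to no gene made up 65.5% and 72.1% of all reads in Brg1-cKO and 32.4% and 31.8% in control, and were left out. The floor behind a zero, 3 counts, equals 0.0789 to 0.275 CPM by library and covers counting error only.

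Of 52636 identifiers, 52403 matched a symbol, and positions and exon lengths came from GENCODE mouse release M21 on the same build. Counts were fitted with edgeR 4.0.16 in R 4.3.3 (TMM, default filter with minimum count 10, robust quasi-likelihood test, group as its only term) across all genes, with Benjamini-Hochberg adjustment at 0.05. Each standard error is the size of the log2 fold change over the square root of its F, and 95% intervals use the fit's degrees of freedom. RPKM was computed from these counts. The functions were tested on simulated data. Alternatives used limma 3.58.1 and DESeq2 1.42.0 among others.

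The members and lists were chosen with earlier results of these data known. Named genes are the 10 members, Smarca4 and, from each list, by smallest p, up to 3 genes in each direction that reach 10 CPM and whose groups do not overlap, with the 3 genes most like Itga4 in profile. Lamc1, Lama1, Vcam1, Vtn, Tgfb2, Tgfb3, Tln1, Fermt1, Csf1r, Sall1, Cd151, Itgb4, Itgb6, Xist, Ddx3y and the integrins at 0 counts were also chosen, with their values in view. Some genes that this rule names are not reported here.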

Additional observations from a re-analysis of the deposited data

Results flagged for a closer look

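Reads that aligned uniquely but lay outside the counted features, which enter no comparison of genes, made up 53.4% of uniquely aligned reads in Brg1-cKO and 15.9% in control. They were singled out because both Brg1-cKO libraries lay above both controls in data outside the gene counts. Their part in the integrin values was not tested.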

How the results depend on the processing

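Counts of genes past the adjusted threshold differed between tests, and also with the terms and libraries of the quasi-likelihood fit. Scaling was varied only within the quasi-likelihood test, and no other test was rerun under another scaling. These counts therefore cannot show how far scaling matters. The quasi-likelihood test called 0 genes with RLE size factors, unscaled totals, library sizes less hemoglobin, mitochondrial and ribosomal protein genes, either other filter on low counts, thinning to the smallest library, and no robust dispersions, where 1422 to 3599 genes had an unadjusted p under 0.05. DESeq2 called 2027 genes over the whole table, 3 of the 10 integrin genes and 25 in the lists of related genes. For the likelihood ratio test these numbers were 2471, 3 and 20, and for limma-voom 327, 0 and 9. For limma-voom with a variance per group they were 134, 1 and 3. The replicate block gave 156, 1 and 4. The shared replicate numbers do not pair the libraries by any label, and the deviations of same-numbered libraries correlated at -0.0169. Leaving out each library in turn gave 16 to 13262 genes, 0 to 8 integrin genes and 0 to 75 genes of the lists, the high ends without a Brg1-cKO library. The cause was not tested.

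Of the alternative values for the 10 integrin genes, 134 kept direction and side of the threshold, 20 kept direction and passed it, and 6 changed sign. Itga1 turned to -0.12 with limma-voom, -0.12 with a variance per group, -0.00 with the replicate block and, leaving out a Brg1-cKO library, ran from -0.86 without replicate 2 to 0.80 without replicate 1. Itga6 ran from -0.26 without Brg1-cKO replicate 1 to 0.35 without Brg1-cKO replicate 2, and Itgav from -0.48 to 0.01. Across the alternatives Itga3 ran from 1.23 to 1.62, Itgb5 from 0.77 to 0.88, Itga4 from -3.89 to -2.10 and Itga8 from 0.04 to 0.16. Thinning to the smallest library gave -2.75 for Itga4 and 0.53 for Itgb8, the members lowest in CPM.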

Other observations

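The membrane partners of integrins were a list of 14 genes, of which 0 passed the adjusted threshold in edgeR's quasi-likelihood test. At an unadjusted p under 0.05 there were 0, where 5.44% of all tested genes were higher and 12.9% lower. The list's median log2 fold change was 0.26. Cd151, the tetraspanin bound to the Itga3 pair at the podocyte base, was at 67.7 and 48.6 CPM in Brg1-cKO and 51.2 and 44.6 CPM in control, and the groups overlapped. Cd82, another tetraspanin, was at 29.4 and 25.8 CPM in Brg1-cKO cells, compared with 12.8 and 11.4 CPM in the controls, and Cd63, of endosomes, at 15.0 and 53.6 CPM in Brg1-cKO and 71.6 and 70.3 CPM in control. Sdc4, a syndecan that acts beside fibronectin receptors, was at 71.2 and 121 CPM in Brg1-cKO cells, compared with 58.9 and 55.2 CPM in the controls. Slc3a2, a heavy chain of amino acid transporters that binds beta chains, was at 192 and 194 CPM in Brg1-cKO cells, compared with 160.1 and 158 CPM in the controls, and Cav1, of caveolae, at 17.3 and 4.2 CPM in Brg1-cKO and 23.4 and 19.9 CPM in control.

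The genes whose profile over the 4 libraries lay closest to that of Itga4, by Euclidean distance of log2 CPM centred on the control mean among 11232 genes, were Gimap6 (0.07), Nucb2 (0.18) and Tgfb1i1 (0.19). Gimap6, a GTPase of immune and endothelial cells, was at 7.27 and 2.15 CPM in Brg1-cKO cells, compared with 30.3 and 33.2 CPM in the controls. Nucb2 was at 4.61 and 1.49 CPM in Brg1-cKO cells, compared with 19.7 and 19.5 CPM in the controls. Tgfb1i1, which encodes the focal adhesion protein Hic5, was at 7.76 and 1.96 CPM in Brg1-cKO cells, compared with 32.2 and 29.7 CPM in the controls. Likeness over 4 libraries is a description only.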
